A study of Saccharomyces cerevisiae with 27 samples.

Results

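The genes described here are the 32 protein-coding genes of budding yeast, Saccharomyces cerevisiae, that carry sugar from glucose to pyruvate and on to ethanol, acetate and glycerol, or back from pyruvate towards glucose. They were chosen by enzyme step and not by a threshold on any measured value, but with earlier results of these data known. All 32 were found by systematic name among the 6664 genes of the RNA table. Glycolysis splits glucose into pyruvate in a chain of enzyme steps. On glucose, yeast ferments most of that pyruvate through pyruvate decarboxylase and alcohol dehydrogenase to ethanol, and it keeps respiration and gluconeogenesis low. Many steps have isoenzymes, which are near copies of an enzyme encoded by different genes; commonly 1 of them serves growth on glucose and another is held down by glucose and is used on ethanol, on acetate or under stress.

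The study read RNA and mapped chromatin in yeast strains deleted for SIR3, whose product silences chromatin, or for genes of INO80, a complex that moves and remodels nucleosomes. In the BY4741 background the RNA strains were the wild type, the single deletions sir3, arp5, ies6 and ies2, and the double deletion sir3 arp5. In the CY337 background they were the wild type and an ino80 deletion. Arp5, Ies6 and Ies2 are subunits of INO80, and Ino80 is its ATPase. All of these were cultured in YPD, a rich glucose medium, and harvested while growing exponentially at an OD600 of 0.8 to 1. BY4741, sir3, arp5 and ies6 had 3 RNA libraries each, ies2, CY337 and ino80 had 2 each, and the double deletion had 1. Histone H3 trimethylated at lysine 4 (H3K4me3) and at lysine 79 (H3K79me3) was mapped by chromatin immunoprecipitation and sequencing (ChIP-seq) in BY4741 and in arp5, with 1 library each. Arp5 itself was mapped in strain CY1838, with 1 library, from cells that were held with nocodazole and then let go into alpha-factor, and whose chromatin was cut with micrococcal nuclease.

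The deposited RNA values are FPKM, fragments per kilobase of gene scaled to sequencing depth, with 1 column per genotype, so no spread between replicates is known and none of the ratios below has a test. Each ratio divides FPKM + 1 of a mutant by FPKM + 1 of its wild type and is given as log2. A gene is called higher or lower where this passes 2-fold and either genotype has at least 5 FPKM. The table holds no read totals, so depth is unknown. In bulk RNA, fewer cells of a kind and less RNA per cell cannot be told apart. The deleted genes were near 0 where the labels say so. ARP5 stood at 35.02 FPKM in BY4741 and is listed at 0 in arp5 and the double mutant, and INO80 stood at 22.1 in CY337 and 0.523 in ino80. Whole chromosomes stood apart in some columns. In ino80 over CY337 the median log2 ratio was 0.97 over chromosome III, in arp5 it was 0.36 over XI and 0.40 over XII, and in the double mutant it was 0.41 over I. For genes on those chromosomes the ratio relative to the median of genes within 50 kb is given as well. It is not given for each gene where the shift was smaller, as over III in arp5 at -0.29. The double mutant also had 65.9% of its FPKM in genes under 150 bp, against 36.2% to 46.5% in the other columns. Its only library carries BIOO in its title. What that label stands for is not described, and it cannot be told apart from genotype there. No ies2 library carries the label, while a BY4741 library does.

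Of the 32 genes, 16 are uncertain in sequence terms. HXK1, GLK1, PGK1, GPM1, CDC19 and GPD1 overlap another annotated gene, and ADH1 and ADH2, TDH1 to TDH3, ENO1 and ENO2, and PDC1, PDC5 and PDC6 are known near copies of each other whose reads can be shared out between them. All 32 positions below are on sacCer3 and equal those in RefSeq.

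In wild-type BY4741 the genes spanned from 31704 FPKM at TDH3, the main glyceraldehyde-3-phosphate dehydrogenase, to 1.01 at PDC6, a minor pyruvate decarboxylase. Below TDH3 came FBA1 (aldolase) at 15862, GPM1 (phosphoglycerate mutase) at 14127, TPI1 (triose-phosphate isomerase) at 12170, ADH1 (the alcohol dehydrogenase that makes ethanol) at 10933 and ENO2 (enolase) at 10229. The genes that glucose holds down were at the bottom, with ACS1 at 11.99, FBP1 at 9.05 and PCK1 at 5.95. Together the 32 genes held 8.33% of the FPKM of all genes of at least 300 bp in BY4741. That share was 9.12% in CY337 and 5.87% in ino80, the lowest of the 8 columns, and between 8.15% and 9.39% in the 5 remaining mutants.

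In sir3, 0 of 31 genes that passed the filter on low values were past 2-fold, where 1.96% of all genes were higher and 2.14% lower. The small ratios leaned one way, since 29 of 31 were above 0 and their median was 0.24 against 0.0035 over all genes. In arp5, 4 of 32 were higher and 2 lower, beside 6.45% and 3.99% of all genes. In ies6, 3 of 31 were higher and 1 lower, beside 5.72% and 3.62%. In ies2, 4 of 31 were higher and 0 lower, beside 3.89% and 1.87%. These are few genes, and in arp5 and ies6 the shares were near those of the whole table. The genes called higher were FBP1, PCK1, PDC6 and ADH5 in arp5, FBP1, ALD4 and HXK1 in ies6, and FBP1, PCK1, ALD4 and ALD6 in ies2, all of them under 500 FPKM in BY4741. Those called lower were HXK1 and PYK2 in arp5 and HXK2 in ies6. Relative to genes within 50 kb, 2 genes were higher and 1 lower in arp5, beside 6.22% and 3.46% of all genes.

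In ino80 over CY337, 11 of 32 genes were lower and 2 higher, beside 5.12% and 8.26% of all genes. The median of the 32 was -0.86 against -0.01 over all genes. Scaled instead to the total FPKM of genes of at least 300 bp, 4 were lower and 5 higher. The median of the 32 was then -0.52. This scaling shifted the median of all genes by 0.34. The shares of all genes called under it were not computed, so these counts are not read as a result. Relative to genes within 50 kb the counts were again 11 and 2, beside 4.93% and 7.66%. In the double mutant 8 of 32 were higher and 3 lower, beside 16.7% and 10.4%. Between the wild types, CY337 had 2 of 31 genes higher and 1 lower than BY4741, beside 8.73% and 3.1%. There the median of all genes was itself shifted by 0.37, so the 32 genes, with a median of 0.27, stood slightly below it. Relative to genes within 50 kb, 0 genes were higher and 3 lower in CY337, beside 4.28% and 5.75%. The comparisons with BY4741 share that column, so likeness between them is not read as a result. Over all 7 comparisons 10 of the 32 genes were never called. The same share over all genes was not computed, so this count is not read as a result.

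**Figure D1:**
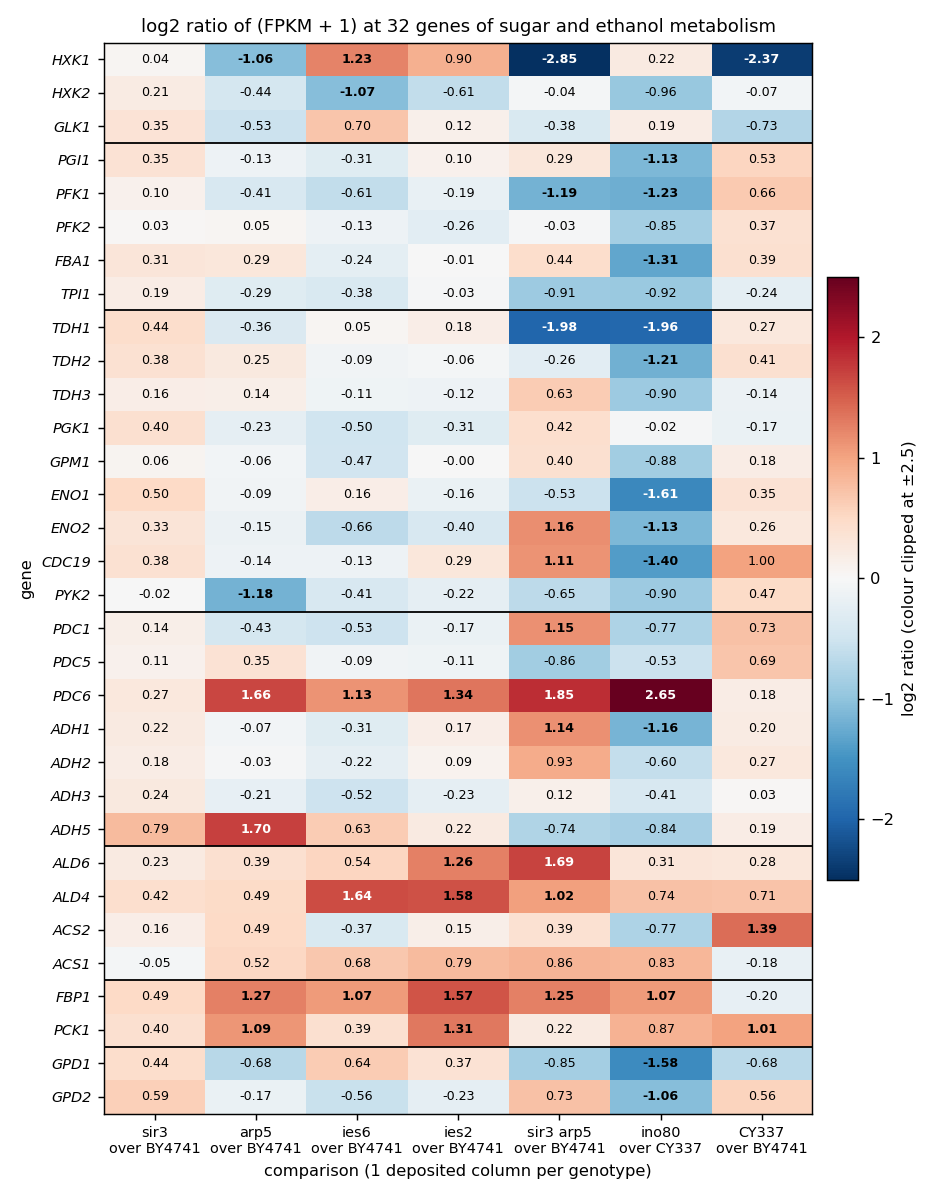
log2 ratio of (FPKM + 1) for each of the 32 genes (rows, grouped by pathway step from hexose phosphorylation at the top to glycerol at the bottom) in 7 comparisons (columns), each of 1 deposited column over another; values past 1 on the log2 scale are in bold. Below hexose phosphorylation, where HXK1 is at 0.22 and GLK1 at 0.19, the ino80 column is blue through upper and lower glycolysis, from -0.02 at PGK1 to -1.96 at TDH1, and it is red at PDC6 and FBP1, while sir3 has no value past 1.

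Hexose phosphorylation, the entry step, had a different mix of isoenzymes in several columns. HXK2 (YGL253W, chromosome VII, 23935 to 25395) encodes the hexokinase that predominates on glucose, and HXK1 (YFR053C, chromosome VI, 253592 to 255049) one that glucose represses. HXK1 FPKM was 334 in BY4741, 344 in sir3, 159 in arp5, 786 in ies6, 623 in ies2, 45.4 in the double mutant, 63.7 in CY337 and 74.4 in ino80. HXK1 was thus 2.35-fold higher in ies6, 2.09-fold lower in arp5 and 7.22-fold lower in the double mutant, and it was also low in both strains of the CY337 background. The arp5 ratio of -1.06 was inside 2-fold by quantile normalization, at -0.95, scaled to genes of at least 300 bp, at -0.92, and relative to genes within 50 kb, at -0.89. HXK2 FPKM was 1046 in BY4741, 1212 in sir3, 772 in arp5, 497 in ies6, 686 in ies2, 1014 in the double mutant, 993 in CY337 and 511 in ino80. It was lower past 2-fold in ies6 alone, with a log2 ratio of -1.07 that became -0.91 and -0.84 under the first 2 of these scalings, and stood just inside the threshold in ino80 at -0.96. GLK1 (YCL040W, chromosome III, 50838 to 52340), the glucokinase gene, ranged from 260.2 FPKM in CY337 to 702 in ies6 and was not called in any comparison.

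As a share of the summed FPKM of these 3 genes, HXK2 made up 57.7% in BY4741, 38.6% in ies2 and 25.05% in ies6. HXK1 went from 18.4% in BY4741 to 39.6% in ies6, where it was the most abundant of the 3, and to 3.26% in the double mutant. The summed FPKM of the step was 1811 in BY4741, 1985 in ies6 and 1780 in ies2. It differed more elsewhere, with 2106 in sir3, 1230 in arp5 and 1392 in the double mutant. In ino80 it was 883, against 1317 in CY337. GLK1 lies on chromosome III, and its ino80 ratio of 0.19 was -0.87 relative to genes within 50 kb. HXK1 overlaps a neighbouring gene on the same strand over 143 bp.

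Upper glycolysis, from glucose 6-phosphate to the triose phosphates, stayed within 2-fold in sir3, arp5, ies6 and ies2 and was lower in ino80. PFK1 (YGR240C, chromosome VII, 970771 to 973734), the alpha subunit of phosphofructokinase, had FPKM of 271 in BY4741, 290.5 in sir3, 204 in arp5, 177 in ies6, 238 in ies2, 118 in the double mutant, 427 in CY337 and 182 in ino80. It was lower past 2-fold in the double mutant, at -1.19, and in ino80, at -1.23. PFK2 (YMR205C, chromosome XIII, 671887 to 674766), the beta subunit of the same enzyme, ranged only from 179.8 FPKM in ino80 to 324 in CY337. The log2 ratio of PFK1 to PFK2 levels per length was 0.12 in BY4741, 0.18 in sir3 and 0.19 in ies2. It was -0.34 in arp5, -0.36 in ies6 and -1.04 in the double mutant, where the subunit genes parted most. In ino80 it was 0.01, against 0.40 in its wild type CY337.

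FBA1 (YKL060C, chromosome XI, 326408 to 327487), which encodes aldolase, had FPKM of 15862 in BY4741, 19629.6 in sir3, 19401 in arp5, 13386 in ies6, 15748 in ies2, 21461 in the double mutant, 20818 in CY337 and 8409.9 in ino80. The ino80 level was the lowest of the 8, 2.48-fold below CY337. In arp5 its ratio of 0.29 was -0.08 relative to genes within 50 kb on chromosome XI. PGI1 (YBR196C, chromosome II, 612236 to 613900), phosphoglucose isomerase, was also lower in ino80, at -1.13 on the log2 scale, and within 2-fold elsewhere. TPI1 (YDR050C, chromosome IV, 555726 to 556472) was at 10308 FPKM in CY337 and 5430.2 in ino80, a log2 ratio of -0.92, and at -0.91 in the double mutant; neither passed the threshold. All 5 upper genes were below 0 in ino80, and 3 of them passed 2-fold. All 5 were also below 0 in ies6, with a median of -0.31 and 0 past 2-fold.

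Lower glycolysis, from triose phosphate to pyruvate, showed the same ino80 pattern, with 9 of 9 genes below 0 and 5 of them past 2-fold. TDH1 (YJL052W, chromosome X, 338271 to 339269), the glyceraldehyde-3-phosphate dehydrogenase isoenzyme known from resting and stressed cells, had FPKM of 2501 in BY4741, 3404 in sir3, 1942 in arp5, 2592 in ies6, 2823 in ies2, 632 in the double mutant, 3017 in CY337 and 774 in ino80. It was 3.95-fold lower in the double mutant and 3.90-fold lower in ino80, and between 1942 and 3404 in the other 6 columns. TDH3 (YGR192C, chromosome VII, 882812 to 883810), the main isoenzyme, had FPKM of 31704 in BY4741, 35341 in sir3, 34978 in arp5, 29413 in ies6, 29208 in ies2, 49058 in the double mutant, 28805 in CY337 and 15423 in ino80. TDH3 was within 2-fold of its wild type in every comparison, with ino80 lowest and the double mutant highest. TDH2 (YJR009C, chromosome X, 453683 to 454681), a further isoenzyme, ranged from 4587 FPKM in ino80 to 10579.6 in CY337 and was past 2-fold in ino80 only, at -1.21. TDH1 therefore went from 5.93% of the summed FPKM of the 3 genes in BY4741 to 1.12% in the double mutant, where TDH3 made up 87.1%.

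The enolase genes parted in the double mutant too. ENO2 (YHR174W, chromosome VIII, 451327 to 452640), the isoenzyme that predominates on glucose, had FPKM of 10229 in BY4741, 12874 in sir3, 9238 in arp5, 6477 in ies6, 7752 in ies2, 22841 in the double mutant, 12222 in CY337 and 5588 in ino80. ENO1 (YGR254W, chromosome VII, 1000927 to 1002240) had FPKM of 3552 in BY4741, 5012 in sir3, 3339 in arp5, 3972 in ies6, 3172 in ies2, 2462 in the double mutant, 4534 in CY337 and 1485 in ino80. In the double mutant ENO2 was 2.23-fold higher while ENO1 stood at -0.53 on the log2 scale, and in ino80 both were lower, at -1.13 and -1.61. ENO1 was 25.8% of the enolase sum in BY4741, 38.01% in ies6 and 9.73% in the double mutant.

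CDC19 (YAL038W, chromosome I, 71786 to 73288), the pyruvate kinase gene of glucose-grown cells, had FPKM of 3130.2 in BY4741, 4061 in sir3, 2848 in arp5, 2853 in ies6, 3816 in ies2, 6779 in the double mutant, 6249.6 in CY337 and 2368 in ino80. It was higher in the double mutant by 1.11 on the log2 scale, and it lies on chromosome I, where the ratio relative to genes within 50 kb was 0.59 and no longer past 2-fold. In ino80 it was 2.64-fold lower than in CY337, whose own level was above that of every column but the double mutant. PYK2 (YOR347C, chromosome XV, 984942 to 986462), the minor pyruvate kinase that glucose represses, was at 25.7 FPKM in BY4741 and 10.8 in arp5, 2.27-fold lower, or -0.96 on the log2 scale with a pseudocount of 5. PYK2 made up less than 1% of the pyruvate kinase sum in every column. PGK1 (YCR012W, chromosome III, 137746 to 138996), phosphoglycerate kinase, was the exception in ino80. Its FPKM was 8116 in BY4741, 10721 in sir3, 6934 in arp5, 5726 in ies6, 6540.3 in ies2, 10872 in the double mutant, 7201 in CY337 and 7099 in ino80. PGK1 is on chromosome III, and relative to genes within 50 kb its ino80 ratio of -0.02 became -0.98, close to those of GPM1 and TDH3 without that step, at -0.88 and -0.90. GPM1 (YKL152C, chromosome XI, 163642 to 164385) had FPKM of 14127 in BY4741, 14743 in sir3, 13537 in arp5, 10176 in ies6, 14080.2 in ies2, 18673 in the double mutant, 15975 in CY337 and 8697 in ino80. It was called in no comparison, and the ino80 level was the lowest of the 8. Its arp5 ratio of -0.06 was -0.39 relative to genes within 50 kb.

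**Figure D2:**
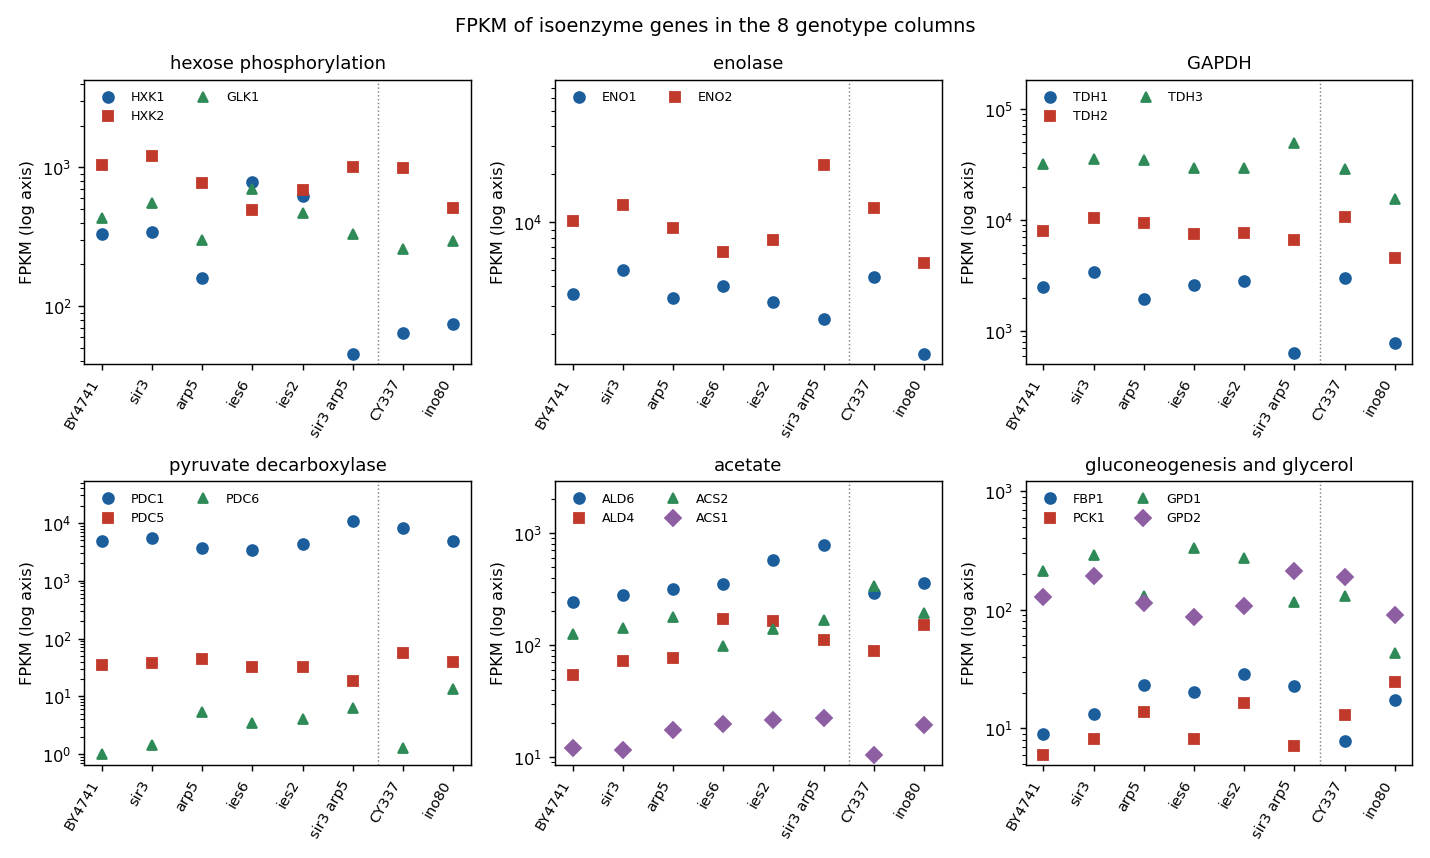
FPKM on a log axis for isoenzyme genes of 6 steps in the 8 genotype columns, 1 point per gene and genotype; the dotted line separates the BY4741 background from CY337 and ino80. HXK1 is at 45.4 in the double mutant and TDH1 at 632, while PDC6 is higher in arp5, ies6, ies2, the double mutant and ino80 than in either wild type.

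Ethanol formation runs through pyruvate decarboxylase and alcohol dehydrogenase. PDC1 (YLR044C, chromosome XII, 232390 to 234081), the main decarboxylase gene, had FPKM of 4945 in BY4741, 5452 in sir3, 3666 in arp5, 3432 in ies6, 4410.0 in ies2, 10969 in the double mutant, 8178 in CY337 and 4803 in ino80. It was 2.22-fold higher in the double mutant and within 2-fold of its wild type elsewhere, with -0.77 in ino80. In arp5 its ratio of -0.43 was -0.76 relative to genes within 50 kb on chromosome XII. PDC5 (YLR134W, chromosome XII, 410723 to 412414), which is known to be used when PDC1 is missing, stayed between 18.4 FPKM in the double mutant and 56.03 in CY337 and was not called, and its arp5 ratio of 0.35 was -0.09 relative to genes within 50 kb. PDC6 (YGR087C, chromosome VII, 651290 to 652981) is a further, weakly expressed gene, and its FPKM was 1.01 in BY4741, 1.42 in sir3, 5.37 in arp5, 3.40 in ies6, 4.09 in ies2, 6.25 in the double mutant, 1.28 in CY337 and 13.3 in ino80. PDC6 was higher than its wild type by 1.66 in arp5, 1.13 in ies6, 1.34 in ies2, 1.85 in the double mutant and 2.65 in ino80 on the log2 scale, but in ies6 and ies2 it stayed under 5 FPKM and was not counted. With a pseudocount of 5 the arp5 ratio was 0.79 and that of the double mutant 0.90, both inside 2-fold. Even in ino80 it was only 0.273% of the decarboxylase sum.

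ADH1 (YOL086C, chromosome XV, 159548 to 160594) had FPKM of 10933 in BY4741, 12720.5 in sir3, 10412 in arp5, 8830.0 in ies6, 12268 in ies2, 24076 in the double mutant, 12538 in CY337 and 5614 in ino80. It was 2.20-fold higher in the double mutant and 2.23-fold lower in ino80. ADH5 (YBR145W, chromosome II, 533762 to 534817), a minor alcohol dehydrogenase gene, had FPKM of 68.04 in BY4741, 118 in sir3, 224 in arp5, 106 in ies6, 79.2 in ies2, 40.2 in the double mutant, 77.5 in CY337 and 43.01 in ino80. It was 3.25-fold higher in arp5, the highest ratio among the 32 genes there, and below its wild type in the double mutant and ino80, at -0.74 and -0.84. ADH3 (YMR083W, chromosome XIII, 434788 to 435915), which encodes the mitochondrial enzyme, stayed between 376 and 637 FPKM.

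ADH2 (YMR303C, chromosome XIII, 873291 to 874337) encodes the glucose-repressed enzyme that uses ethanol, and its values depended on the table. Its FPKM was 901 in BY4741, 1019 in sir3, 885 in arp5, 772 in ies6, 957 in ies2, 1716 in the double mutant, 1085 in CY337 and 716 in ino80, which was 8.25% of ADH1 in BY4741, between 7.13% and 8.74% in the 6 other columns that exclude ino80, and 12.8% in ino80. ADH2 was called in no comparison by FPKM. In the authors' deposited metagene tables, which hold log2 ratios against the wild type for 15 equal parts of each gene, the mean over ADH2 was 1.23 in arp5, 1.16 in ies6, 1.07 in ies2, 2.20 in ino80 and -0.23 in sir3.

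The ADH2 parts were not alike. Parts 4 to 6 of ADH2 in the authors' deposited metagene table of arp5 lay between -0.05 and 0.14, close to ADH1, whose parts in that table lay between -0.09 and 0.0044. The other 12 parts of ADH2 lay between 1.19 and 1.93 in arp5. In the authors' deposited metagene tables of ies6 and ies2 these 12 parts averaged 1.46 and 1.31, and in that of ino80 2.72, while parts 4 to 6 averaged 0.16 there. The coding sequences of ADH1 and ADH2 are known to be very alike. The sources used here do not give how reads that match both genes were placed in either table, and their part in this difference was not tested. The metagene ratios are also smaller than FPKM ratios in general, with a slope of 0.48 to 0.58 across genes of at least 10 FPKM in sir3, arp5, ies6 and ies2.

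**Figure D3:**
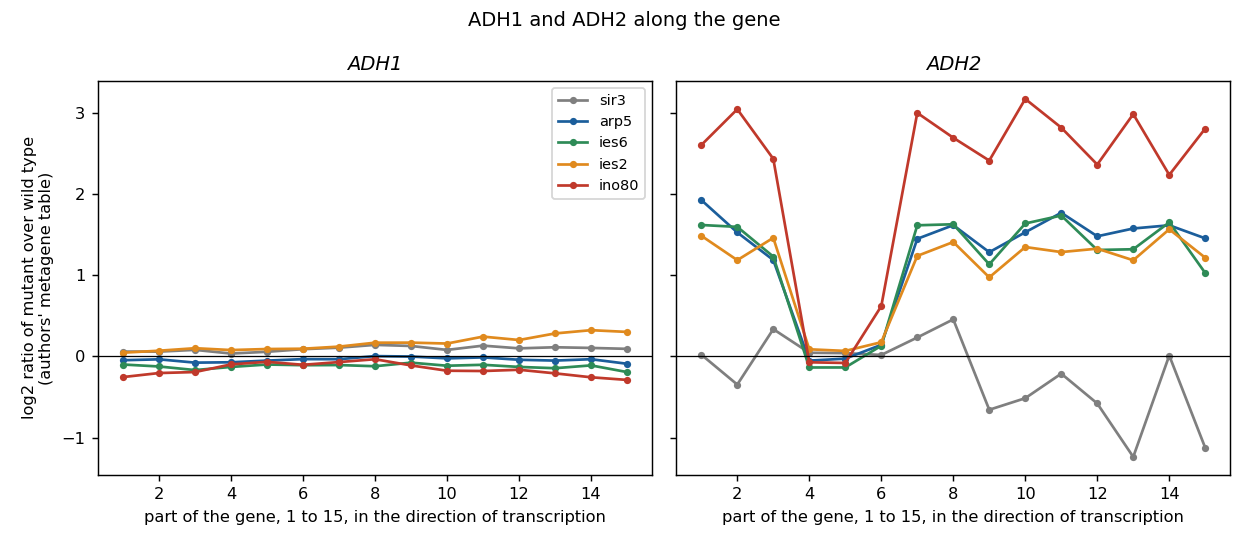
log2 ratio of each mutant to its wild type in each of 15 equal parts of ADH1 (left) and ADH2 (right), from the authors' deposited metagene tables of 5 mutants, with 1 line per mutant. ADH1 lines stay near 0 along the gene, whereas ADH2 lines of arp5, ies6, ies2 and ino80 are well above 0 except in parts 4 to 6, and the sir3 line is not.

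PDC5 and PDC6, which resemble PDC1, also differed between tables. The authors' deposited metagene table of arp5 gave PDC5 a mean of 1.04 against an FPKM ratio of 0.35, and PDC6 a mean of 2.32 against 1.66. The metagene table named as ino80 over CY337 needs a further limit. In that deposited table the genes of chromosome III stood at -0.02 relative to all genes, where the FPKM columns put them at 0.98. Across genes its ratios correlated with the FPKM ratios of ino80 over CY337 with r = 0.45 and over BY4741 with r = 0.51, as a description over 5321 genes. Which libraries and which wild type entered that table is not stated in the labels, so its values are not read as repeats of the FPKM ratios of ino80.

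Acetate formation and its use for acetyl-CoA had genes above wild type in several mutants. ALD4 (YOR374W, chromosome XV, 1039840 to 1041399), the mitochondrial aldehyde dehydrogenase that glucose represses, had FPKM of 54.04 in BY4741, 72.5 in sir3, 76.1 in arp5, 170.3 in ies6, 164 in ies2, 111 in the double mutant, 89.3 in CY337 and 149.8 in ino80. ALD4 was 3.11-fold higher in ies6, 2.99-fold higher in ies2 and 2.03-fold higher in the double mutant. The double mutant's ratio was inside 2-fold in 5 other settings, from 0.55 when scaled to genes of at least 300 bp to 0.997 when centred on the median of all genes. ALD6 (YPL061W, chromosome XVI, 432588 to 434090), the main cytosolic enzyme, had FPKM of 240.1 in BY4741, 282 in sir3, 316 in arp5, 349 in ies6, 576 in ies2, 774 in the double mutant, 291 in CY337 and 361 in ino80. It was higher past 2-fold in ies2, at 1.26, and in the double mutant, at 1.69. The ALD4 share of the pair was 18.4% in BY4741, 32.8% in ies6 and 12.5% in the double mutant.

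ACS1 (YAL054C, chromosome I, 42881 to 45022), the acetyl-CoA synthetase gene repressed by glucose, was at 11.99 FPKM in BY4741 and 10.5 in CY337, and between 17.6 and 22.6 in the 5 strains that lack an INO80 subunit. Its ratios there ran from 0.52 to 0.86, all above 0 and all inside 2-fold, and in sir3 it was -0.05. The highest, in the double mutant, was 0.31 relative to genes within 50 kb on chromosome I. ACS2 (YLR153C, chromosome XII, 445524 to 447575), the isoenzyme used on glucose, had FPKM of 126 in BY4741, 142 in sir3, 178 in arp5, 97.4 in ies6, 140.4 in ies2, 166 in the double mutant, 334 in CY337 and 195 in ino80. ACS2 was called only between the wild types, where CY337 was higher by 1.39, or 0.93 relative to genes within 50 kb. Its arp5 ratio of 0.49 was 0.14 relative to these.

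Of the 2 gluconeogenic genes, FBP1 was below 10 FPKM in both wild types and higher in each strain that lacks an INO80 subunit, while PCK1 also differed between the wild types. FBP1 (YLR377C, chromosome XII, 873746 to 874792), fructose-1,6-bisphosphatase, had FPKM of 9.05 in BY4741, 13.1 in sir3, 23.2 in arp5, 20.1 in ies6, 28.9 in ies2, 22.98 in the double mutant, 7.76 in CY337 and 17.4 in ino80. Relative to its wild type it was 2.40-fold higher in arp5, 2.10-fold in ies6 and 2.98-fold in ies2. It was 2.39-fold higher in the double mutant and 2.10-fold in ino80. FBP1 was the only one of the 32 genes called in all 4 single subunit mutants, 3 of which share the BY4741 column. The share of all genes called in all 4 was not computed. In sir3 the FBP1 ratio was 0.49. Relative to genes within 50 kb on chromosome XII, the arp5 ratio of 1.27 was 0.81, inside 2-fold. In ies6 it was inside 2-fold with a pseudocount of 5, at 0.84, and by quantile normalization, at 0.95. In ino80 these values were 0.81 and 0.68. In the double mutant it was 0.99 with a pseudocount of 5 and 0.80 scaled to genes of at least 300 bp, so the call in ies2 was the only one kept under every setting.

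PCK1 (YKR097W, chromosome XI, 631152 to 632801), phosphoenolpyruvate carboxykinase, had FPKM of 5.95 in BY4741, 8.17 in sir3, 13.8 in arp5, 8.13 in ies6, 16.2 in ies2, 7.10 in the double mutant, 12.99 in CY337 and 24.6 in ino80. It was higher past 2-fold in arp5, at 1.09, and in ies2, at 1.31, and stood at 0.87 in ino80. Wild-type CY337 was itself above BY4741 by 1.01, nearly as much as arp5, and its level was above those of sir3, ies6 and the double mutant. Relative to genes within 50 kb this ratio was 0.37. The arp5 value was 0.65 relative to genes within 50 kb on chromosome XI, and it was also inside 2-fold with a pseudocount of 5, at 0.78, and by quantile normalization, at 0.88. With a pseudocount of 5 the ies2 value was 0.95. The authors' deposited metagene tables gave FBP1 means of 1.08, 1.11, 1.33 and 1.27 in arp5, ies6, ies2 and ino80, and PCK1 means of 1.23, 0.56, 1.44 and 1.46. Both genes remained under 30 FPKM in every column, far below the glycolytic genes.

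Glycerol formation starts with glycerol-3-phosphate dehydrogenase. GPD1 (YDL022W, chromosome IV, 411825 to 413000), the isoenzyme induced by osmotic stress, had FPKM of 212 in BY4741, 288 in sir3, 131 in arp5, 329.7 in ies6, 274 in ies2, 117 in the double mutant, 132 in CY337 and 43.3 in ino80. GPD2 (YOL059W, chromosome XV, 217126 to 218448), known from oxygen-poor growth, had FPKM of 128 in BY4741, 194 in sir3, 114 in arp5, 86.3 in ies6, 109 in ies2, 212 in the double mutant, 189 in CY337 and 90.5 in ino80. Both were lower in ino80, at -1.58 and -1.06, and neither was called elsewhere. The GPD2 ratio was inside 2-fold by quantile normalization, at -0.998, scaled to genes of at least 300 bp, at -0.71, and relative to genes within 50 kb, at -0.99. Against the general shift between the wild types, GPD1 in CY337 over BY4741 went from -0.68 to -1.05 when centred on the median of all genes, past 2-fold. GPD1 held 62.3% of the pair in BY4741 and 79.3% in ies6, against 41.01% in CY337 and 32.4% in ino80.

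Highly expressed genes as a whole were lower in ino80, so the glycolytic genes were set beside them. Among genes with a mean of at least 1000 FPKM over ino80 and CY337, the 13 of this pathway had a median log2 ratio of -1.13, with 8 past 2-fold. The 215 other genes of that level had a median of -0.45, and 7.91% of them were past 2-fold. The 107 ribosomal protein genes among these stood at -0.44. In arp5, ies6 and ies2 the order was the other way round: the pathway medians were -0.13, -0.28 and -0.03, above those of other genes of that level at -0.38, -0.46 and -0.34. These are descriptions of single columns. TDH1, ENO1, CDC19 and GPD1 were past 2-fold in ino80 under every scaling tried. PGI1, TDH2, ENO2 and ADH1 were inside it by quantile normalization, from -0.74 at ADH1 to -0.90 at TDH2, and when scaled to genes of at least 300 bp, from -0.78 at ENO2 to -0.86 at TDH2. PFK1 and FBA1 were inside it under the latter only, at -0.89 and -0.96. In the deposited metagene table of ino80, 24 of the 32 genes were below the median of all genes in their mean over the gene. Their median was -0.21 against 0.20 over all genes in that table. Its libraries and wild type are not stated, so these values are not read as a repeat of the FPKM result. Without the 16 genes that overlap another gene or have a near copy, 4 of 16 were lower in ino80 FPKM and 1 higher, with a median of -0.84.

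**Figure D4:**
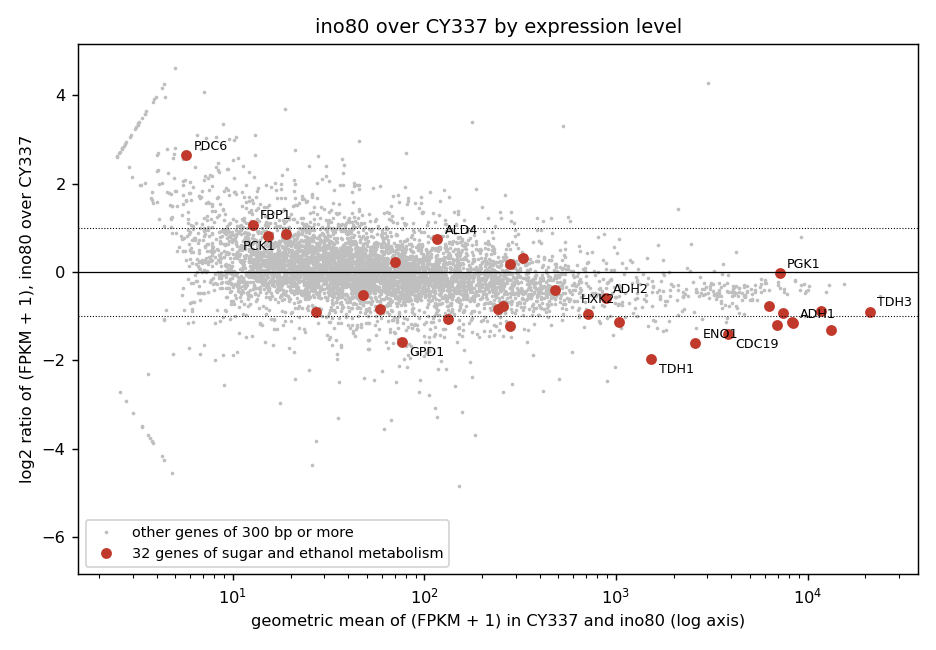
log2 ratio of (FPKM + 1) in ino80 over CY337 against the geometric mean of (FPKM + 1) in both, on a log axis, for all counted genes of at least 300 bp (grey) and the 32 genes (red); dotted lines mark 2-fold. At the high end the red points lie mostly between -0.8 and -2, below most grey points, with PGK1 at -0.02, and the low genes PDC6 and FBP1 lie above 1.

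The double mutant combined high and low genes of the same steps. ENO2, CDC19, PDC1 and ADH1, each the main gene of its step on glucose, were higher by 1.16, 1.11, 1.15 and 1.14, while HXK1, TDH1 and PFK1 stood at -2.85, -1.98 and -1.19. Highly expressed genes outside the pathway were also above BY4741 there, with a median of 0.47 over 241 genes, close to the 0.42 of the 15 pathway genes of that level. Scaled to the total FPKM of genes of at least 300 bp, 1 of the 32 genes was higher and 9 lower. By quantile normalization 3 were higher and 4 lower, and the median was -0.18 under either. The shares of all genes called under these scalings were not computed. The 4 main genes were no longer past 2-fold under these scalings, whereas HXK1, TDH1 and PFK1 were. Relative to genes within 50 kb 6 were higher and 2 lower, beside 15.9% and 10.8% of all genes, with PFK1 at -0.82. HXK1 and TDH1 were past 2-fold in the double mutant under each of these scalings.

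Reads before and along the genes were compared in the authors' metagene tables. In the 1 kb before the gene, the median over the 32 genes in the authors' deposited metagene tables was 0.55 in arp5, 0.69 in ies6, 0.57 in ies2 and 0.76 in ino80. Over all genes of at least 10 FPKM the same tables gave 0.33, 0.32, 0.21 and 0.51. Windows before the gene were thus above wild type in general, and 24, 23, 27 and 19 of the 32 genes stood above the median of all genes. The highest were PCK1, at 2.09 in arp5 and 2.31 in ies2, and PDC1, at 2.29 in ino80. These windows can hold the neighbouring gene.

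Deposited tables by strand held 10 of the 32 genes. The authors' deposited strand tables gave PDC6 sense means of 3.37 in arp5, 2.73 in ies6 and 4.28 in ino80, and FBP1 sense means of 2.40, 2.84 and 2.18. Over all genes in those deposited tables the sense medians were 0.22, 0.13 and 0.53. Antisense to PGI1 the authors' deposited strand tables gave 1.21 in arp5, 1.70 in ies6, and -0.33 in ino80, where their antisense medians over all genes were 0.38, 0.21 and 0.70. The RNA kit named in the labels' protocol does not keep strand, 7 RNA libraries carry the label BIOO with no protocol of their own, and the ino80 strand table is named as over BY4741. What these values measure is therefore uncertain.

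Other genes of the same metabolism, in 8 lists of 69 genes, were read in the same way. The lists were chosen by function, with earlier results of these data known. Their counts stand beside shares of all genes called higher of 1.96% in sir3, 6.45% in arp5, 5.72% in ies6, 3.89% in ies2, 16.7% in the double mutant and 8.26% in ino80. Called lower were 2.14% in sir3, 3.99% in arp5, 3.62% in ies6, 1.87% in ies2, 10.4% in the double mutant and 5.12% in ino80. Of 14 regulators, of which 12 passed the filter on low values, 2 were higher in each of ies6, ies2, the double mutant and ino80, and 0 in sir3 and arp5. The 1 regulator lower in each of arp5, ies6, the double mutant and ino80 was the same gene, and 1 of 12 is near the share of all genes. TYE7, an activator of glycolytic genes, stood at 213 FPKM in BY4741 and was lower in arp5, ies6, the double mutant and ino80, at -2.14, -1.01, -2.58 and -1.46. ADR1, an activator of ADH2 and other glucose-repressed genes, was higher in ies6 at 1.46 and in ies2 at 1.15. Of the pentose phosphate genes, 3 of 11 were higher in arp5, 4 in ies6 and 3 in ies2, with 0, 1 and 0 lower. The higher ones were mainly the minor isoenzymes, with NQM1, a transaldolase paralog, at 16.4 FPKM in BY4741 and 263 in ies6, and GND2, a minor 6-phosphogluconate dehydrogenase, at 4.22 and 39.9. TAL1, the main transaldolase, was lower there at -1.07. In the double mutant 6 of 11 were higher, among them ZWF1, which encodes the entry enzyme of the pathway, at 723 FPKM against 99.9.

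Among 10 glyoxylate cycle, anaplerotic and lactate genes, 3 of 9 counted were higher in arp5, 2 of 8 in ies6, 5 of 9 in ies2, 3 of 9 in the double mutant and 3 of 10 in ino80, with 0 lower in each. ADY2, an acetate transporter, was at 1.98 in ies6, 2.01 in ies2 and 2.34 in ino80. ADY2 lies on chromosome III, whose genes stood high in ino80. CYB2, which encodes lactate dehydrogenase, was at 1.98 in ies6. Of 7 other alcohol and aldehyde dehydrogenase genes, 2 were higher in arp5, 2 in ies6, 3 in ies2, 2 in the double mutant and 1 in ino80, with 0 lower, and ALD3 was at 3.62 in ies6 and 3.10 in ies2. Of 6 glycerol genes, 2 were higher and 2 lower in ino80. Both glycerol phosphatases, GPP1 and GPP2, were lower in ino80, at -1.11 and -1.11, and GUT2, which breaks glycerol phosphate down, was higher at 1.61. Of the 5 pyruvate dehydrogenase genes, PDA1 in the double mutant, at 1.55, was the only one called in any comparison. Of 8 genes around phosphofructokinase, mutase and hexose phosphate control, 4 were lower in the double mutant and 0 higher, with GPM2, a phosphoglycerate mutase paralog, at -2.33 and PGM2, the main phosphoglucomutase gene, at -1.84. PGM2 was higher in ies6 and ies2, at 1.64 and 1.59.

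Genes that are known to follow glucose supply and stress also differed in these columns. The 8 such genes read here are the last of the lists above, and the same shares of all genes stand beside their counts. Among them, 2 were higher in sir3, 4 in arp5, 5 in ies6, 6 in ies2, 3 in the double mutant and 3 in ino80. HXT1 was the only one lower in ino80, at -1.58. HSP12, a general stress gene, went from 797 FPKM in BY4741 to 21161 in ies6, 10047 in ies2 and 4909 in arp5, and from 685 in CY337 to 13399.9 in ino80. In the double mutant the glucose-repressed transporter genes HXT6 and HXT7 were lower, at -1.60 and -1.73, and HXT1, the low-affinity transporter gene induced by glucose, was higher, at 1.63. HXT6 and HXT7 are near copies. The part of these genes' state in the values of the pathway was not tested.

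H3K79me3, a mark that Dot1 places on transcribed genes, was low over most of the 32 genes. Over gene bodies in BY4741 the median of the 32 genes was -1.10 (log2 over input) against 0.08 for all genes, and 20 of 32 were under -1, where 18.6% of all genes were. The lowest were PDC6 at -2.04, TDH1 at -1.70, ALD6 at -1.62, PDC1 at -1.60 and TDH3 at -1.60. Low values thus occurred both at TDH3, with 31704 FPKM, and at PDC6, with 1.01. Of 14 genes with at least 1000 FPKM, 12 were under -1, and their median was -1.20 against -0.22 for 219 other genes of that level. The genes above 0 were PFK1 at 0.87, PFK2 at 0.66, ACS2 at 0.44, PGI1 at 0.34, ADH3 at 0.21, ADH2 at 0.14 and HXK2 at 0.03.

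In arp5, H3K79me3 was higher over 27 of the 32 genes, where 53.8% of all genes were higher, and the median of the 32 was -0.40. It was also higher over 204 of 219 other genes of at least 1000 FPKM. The same held for 917 of 929 other genes under -1 in BY4741, so the rise was not particular to the pathway. Of the 32 genes only PDC6 was still under -1, at -1.07. Among the largest differences were GPM1, from -1.46 to -0.24, PDC1, from -1.60 to -0.53, and TPI1, from -1.28 to -0.22. The differences went with the starting level. The 20 genes under -1 in BY4741 had a median difference of 0.76, and 929 other genes under -1 had 0.70. The 12 remaining genes had 0.05, with PFK1, ADH2, FBP1, ACS2 and PGI1 lower in arp5. The authors' deposited ratio table of H3K79me3 between the strains gave the 32 genes a median of 0.73 against 0.11 over all genes. With 1 library each and a narrower range of values in arp5 than in BY4741, a difference between genotypes and one between precipitations cannot be told apart.

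**Figure D5:**
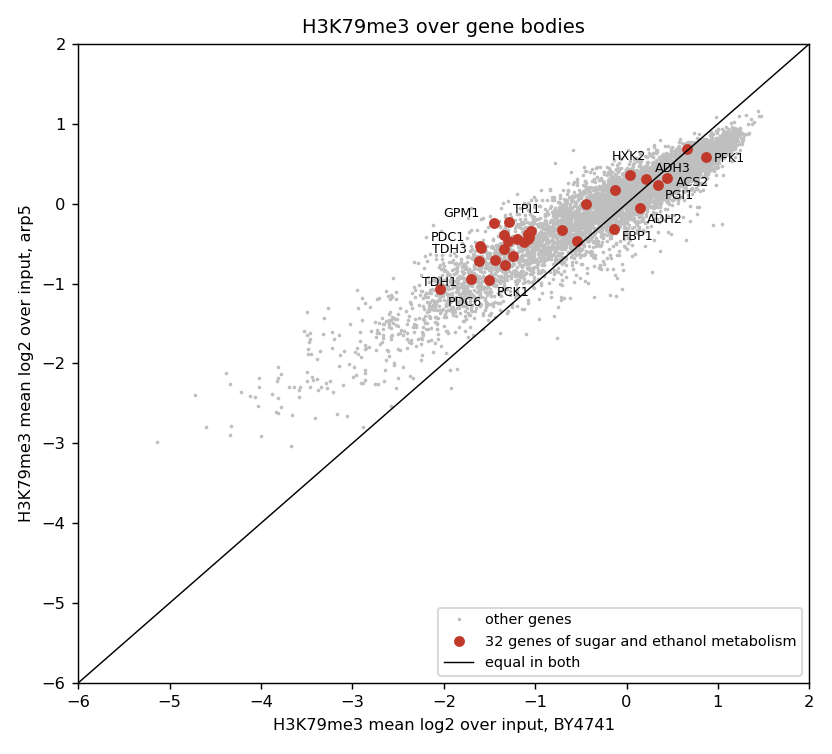
Mean H3K79me3 log2 ratio over input across the gene body in arp5 (vertical) against BY4741 (horizontal), 1 point per gene, with the 32 genes in red and all other genes in grey; the line marks equal values. Most red points lie on the left above the line, from PDC6 at -2.04 and -1.07, within the cloud of grey points of the same BY4741 level.

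H3K4me3, a mark of the start of active genes, was high at most of the highly expressed genes and low at most with least RNA. Over the first 500 bp in BY4741 it was 2.18 at CDC19, 1.997 at FBA1 and 1.93 at HXK2. It was -3.77 at ACS1, -3.63 at PDC6, -3.26 at PCK1, -2.27 at HXK1 and -1.45 at PDC5. Of other genes with little RNA, PYK2 was at 0.32 and FBP1 at -0.93, and FBP1 was at 0.35 over the whole gene. HXK1 and TDH1 were low for their RNA, with 334 and 2501 FPKM and H3K4me3 of -2.27 and -0.89. In arp5, H3K4me3 over the first 500 bp was higher at 26 of 32 genes, beside 46.9% of all genes. Over the whole gene it was higher at 17 of 32, beside 38.4% of all genes, and the median difference of the 32 was 0.01 there against 0.33 over the first 500 bp. The largest differences over the first 500 bp were at GLK1, from -0.38 to 0.82, HXK1, from -2.27 to -1.18, and ADH2, from -0.58 to 0.42. At HXK1 and GLK1 the RNA in arp5 was below BY4741, at -1.06 and -0.53, so the ratio over input and the RNA differed in direction there. There was little mark at either gene. HXK1 stayed below input in both strains, and in BY4741 0 of its 29 windows were listed as significant, and 2 of 30 at GLK1. The HXK1 RNA ratio was -0.89 relative to genes within 50 kb. GLK1 lies on chromosome III, where the arp5 median was itself -0.29. Other genes of at least 1000 FPKM had a median H3K4me3 difference of 0.28, near that of the 32 genes.

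Arp5 was listed densely before these genes. The authors' deposited list gives only windows of 50 bp with significant Arp5 over input. Of the 30 genes with 10 windows in the 500 bp upstream, 23 had all 10 listed, where 34.8% of all genes did, and ACS2 and GPD2 had 9 of 9. Dense listing was shared with other highly expressed genes. All 10 were listed at 142 of 219 other genes of at least 1000 FPKM (64.8%), and at 13 of the 14 pathway genes of that level. FBP1 had the fewest, with 6 of 10. The median over the 32 genes of the mean log2 in listed windows was 1.04 against 0.64 for all genes and 0.78 for 219 other genes of at least 1000 FPKM. PDC1 was highest at 1.93, followed by ADH1 at 1.42, FBA1 at 1.31, and PFK2 and ENO2 at 1.28 and 1.28. The lowest were ALD4 at 0.52, FBP1 at 0.56, ADH2 at 0.59 and PCK1 at 0.62. PDC6 and HXK1 stood near the median, at 1.05 and 1.15.

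Inside the genes the listing differed between isoenzymes. All 34 windows of 50 bp of PDC1 were listed, and so were all 21 of ADH1, all 20 of TDH3 and all 22 of FBA1. None of the 34 windows of PDC5, the 21 of ADH2, the 20 of TDH1 or the 33 of PCK1 was listed. PDC1 and PDC5, ADH1 and ADH2, and TDH3 and TDH1 are near copies, and the part of shared reads in this listing was not tested. TPI1 and GPM1 were also listed in full, and PFK1 and PFK2 had 4 of 60 and 3 of 57. PDC6 had 25 of 34 windows listed, with 1.01 FPKM in BY4741. The Arp5 cells differed from the RNA cells in strain and growth, and there was 1 library, so the listing describes that library.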

How the data were processed

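RNA was sequenced from 19 libraries of 8 genotypes and chromatin from 8 ChIP libraries. Per the submitters' processing notes, reads were aligned with TopHat2 2.0.8 and Bowtie (0.12.9 is listed), and Cuffdiff 2.0.2 gave the expression values. The authors deposited FPKM for 6664 genes in 1 column per genotype, and which libraries entered each column is not stated in the labels. The authors deposited log2 ratios of precipitate over input in windows of 50 bp, and metagene and strand tables of log2 ratios between strains that divide each gene into 15 parts and add 10 windows of 100 bp on either side. How these were scaled is not stated.

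Group labels came from the sample titles, since the ChIP libraries of arp5 carry a wild-type genotype in another label field. The ratio used was log2((FPKM + 1)/(FPKM + 1)), with calls past 2-fold at 5 FPKM or more in either genotype. Deleted genes were left out. A high level means a mean of 1000 FPKM or more in the pair of columns and 300 bp or more. ChIP values are means of the windows whose centres lie in the gene, its first 500 bp or the 500 bp before it. Lists that hold only significant windows were used as counts of windows. With 1 column per genotype there was no SD and no test, depth is unknown, and no interval was given. The scripts recovered known ratios in simulated data. This checked the arithmetic only: genes as low as PDC6, PCK1 and FBP1 were given no known ratio, and shared reads were not simulated.

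The text names all 32 genes, the deleted genes, and of each list of pathway genes the 2 highest and 2 lowest past 2-fold in a comparison, from which examples are given. Members and lists were chosen with earlier results of these data known. RefSeq symbols matched 32 of 32. Alternatives were other pseudocounts (0.1 and 5), no filter on low values or a mean of 10 FPKM, centring, quantile normalization, scaling to genes of 300 bp or more, and a 300 bp promoter. Ratios relative to genes within 50 kb, counts without overlapping or near-identical genes, and the deposited H3K79me3 ratio were added after seeing the data. Python 3.11.15, numpy 2.4.6, pandas 2.3.3 and matplotlib 3.10.9 were used.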

Additional observations from a re-analysis of the deposited data

Results flagged for a closer look

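Some genes of the pathway stood past 2-fold on opposite sides in different mutants. The log2 ratio of ADH1 was 1.14 in the double mutant over BY4741 and -1.16 in ino80 over CY337. That of CDC19 was 1.11 in the double mutant and -1.40 in ino80, and that of ENO2 was 1.16 and -1.13. HXK1 had ratios over BY4741 of -1.06 for arp5, -2.85 for the double mutant and 1.23 for ies6. Each value rests on 1 deposited column per genotype, and none of these differences between mutants was tested. The 3 positive values of the double mutant were inside 2-fold after quantile normalization or scaling to genes of at least 300 bp. Under these settings the ino80 ratios were -0.74 and -0.81 for ADH1 and -0.76 and -0.78 for ENO2, and the arp5 ratio of HXK1 was -0.95 and -0.92, also inside 2-fold. The ino80 ratio of CDC19 and the HXK1 ratios of ies6 and the double mutant stayed past it. Each of the 4 genes has a near copy or overlaps another gene.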

How the results depend on the processing

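No paired analysis was possible because each genotype has 1 deposited column in which libraries are pooled, and for the same reason no replicate could be left out. Of 220 gene ratios 41 were past 2-fold. Only 15 of these stayed past it in the same direction under all settings they could be run in. None of the called ratios changed sign. With a pseudocount of 5, 10 of 220 were no longer past 2-fold and the count in arp5 was 3 instead of 6. Quantile normalization ended 16 calls and added 4, with counts of 2 instead of 4 in ies6, 7 instead of 11 in the double mutant and 8 instead of 13 in ino80. It moved the median of the 32 genes to 0.17 in arp5 and reversed it to -0.18 in the double mutant. Scaling to the total FPKM of genes of at least 300 bp ended 16 calls and added 11. It shifted the median of all genes by 0.14 in arp5, 0.22 in ies6, 0.22 in ies2, -0.45 in the double mutant and 0.34 in ino80. It reversed the median of the 32 genes to -0.18 in the double mutant and moved it to -0.52 in ino80. Centring on the median of all genes reversed the median of CY337 over BY4741 to -0.095, and 1 gene was then higher and 3 lower. The shares of all genes called were not computed under these settings.

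Among alternatives chosen after seeing the data, ratios relative to genes within 50 kb gave 3 calls in arp5 and reversed the CY337 median to -0.082. Without the 16 overlapping or near-identical genes the counts were 4 of 16 in the double mutant and 5 of 16 in ino80. With all 32 genes they were 11 and 13. The cause of a difference between settings was not tested. Medians of H3K79me3 and Arp5 over the 32 genes stayed within 1.5 times under each alternative run for them. The median H3K4me3 difference of the 32 genes less that of all genes was 0.12 over the gene, 0.35 over its first 500 bp and 0.01 over the gene without that subtraction. No spread between replicates, no sequencing depth and 1 library per ChIP experiment limit every value given, and low genes such as PDC6, PCK1 and FBP1 are limited most.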
